A study of Mus musculus with 21 samples.

Results

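The 39 genes described here are genes of the oligodendrocyte, the myelinating glial cell of the central nervous system, other than those coding for the structural proteins of the myelin sheath. They were chosen by name, as oligodendrocyte transcription factors, lipid enzymes, connexins and other genes of the mature cell. All 39 were among the 16318 genes with estimated read counts and all passed the low-count filter that left 16303 genes for testing. The counts came from the whole brains of 21 SAMP8 mice, a senescence-accelerated strain with early memory loss. The control group was 12 mice given PBS (6 female and 6 male), and the treated group was 9 mice given 1 mg/kg HsTX1[R14A] (3 female and 6 male), a scorpion toxin analog that blocks the voltage-gated potassium channel Kv1.3. Injections were subcutaneous, every other day from 4 months of age, and brains were taken at 6 months after perfusion with PBS. No mouse of another strain was compared here.

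Oligodendrocytes arise from precursor cells under transcription factors such as Olig2 and Sox10, and Myrf then switches on the genes of the myelinating cell. A mature oligodendrocyte wraps axons with membrane rich in galactolipids, which it makes with enzymes such as Ugt8a and Fa2h. It also joins astrocytes through gap junctions, handles iron and acetate, and keeps a specialized cytoskeleton in its processes. In whole-brain RNA, fewer oligodendrocytes and less of these RNAs per oligodendrocyte cannot be told apart. The cell type that a given RNA came from is not known either.

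Some libraries stood apart from the rest over all genes. For each library, the slope of log2 CPM (read counts scaled to the size of the library, centered on each gene's mean over the mice) on log2 transcript length was computed, so that a low slope means relatively less signal from long transcripts. The slopes ran from -0.384 to 0.147 with PBS (median -0.0229) and from -0.142 to 0.234 with HsTX1[R14A] (median 0.150), and PBS mice 103 and 90 had the lowest of all. The library names also came in 2 forms, SAMP8 (10 PBS and 5 HsTX1[R14A] mice) and SAMP (2 and 4 mice), whose meaning the sources used here do not give. Library totals ran from 14917174 to 47613792 counts, and the lowest count of any member in any mouse was 90.0.

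Per kilobase of transcript, the PBS medians ran from 1.61 CPM per kb for Enpp6, a choline phosphodiesterase of newly formed oligodendrocytes, to 167 CPM per kb for Plekhb1, a membrane-associated protein with a pleckstrin homology domain. Car2 (141), Cryab (125), Qdpr (115), Apod (107), Tppp (95.4) and Bcas1 (92.8) followed Plekhb1 on this scale. Of the 38 pairs of neighbors in the order of all 39 genes, 4 differed by more than the larger coefficient of variation of the pair among PBS mice, namely Bcas1 and Trf, Trf and Olig1, Olig1 and Efnb3, and Prr5l and Enpp6. The highest pair, Plekhb1 and Car2, did not differ by more than their spread. Among the transcription factors Olig1 was highest at 49.6 CPM per kb, and Myrf lowest at 4.99 CPM per kb. The median coefficient of variation among PBS mice was 18.6% over the members and 20.7% over all genes tested. The members with the widest spread were Myrf (45.1%) and Sox10 (39.8%), and Gal3st1 had the narrowest (8.69%).

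The comparison of treated with control mice asked how the blocker changed these RNAs in the brain. With HsTX1[R14A], 16 of the 39 members were called lower and 1, Myrf, was called higher, and 22 were not called (adjusted p of at most 0.05, edgeR quasi-likelihood test with sex in the model). Over all genes tested, 16.1% were called lower and 15.5% were called higher. The share of members called lower was 41.0%, and the share called higher was 2.56%. Of the 39 log2 fold changes, 28 were below 0, and their median was -0.22 against -0.01 over all genes tested. The 16 genes called lower fell by 0.25 to 0.73 on the log2 scale. For 14 of the 16 genes called lower every treated mouse was below the PBS median. These genes were picked by their calls in the same mice, and the share over all genes was not computed. The 2 groups did not overlap at all for 0 members and for 3 of all genes tested. Leaving out 1 mouse at a time moved the calls over all genes from 2618 lower and 2526 higher to between 1030 lower and 1259 higher (both without PBS mouse 90) and 3340 lower and 3274 higher (both without HsTX1[R14A] mouse 93), while the members called lower ran from 12 to 20. The all-gene calls fell by a factor of more than 1.5 in both directions on leaving out HsTX1[R14A] mouse 71, 81, 88 or 98 alone, as on leaving out PBS 90. With upper quartile scaling the genome-wide calls moved from 2526 higher and 2618 lower to 1679 higher and 3764 lower, and the members from 16 lower and 1 higher to 22 lower and 1 higher.

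**Figure D1:**
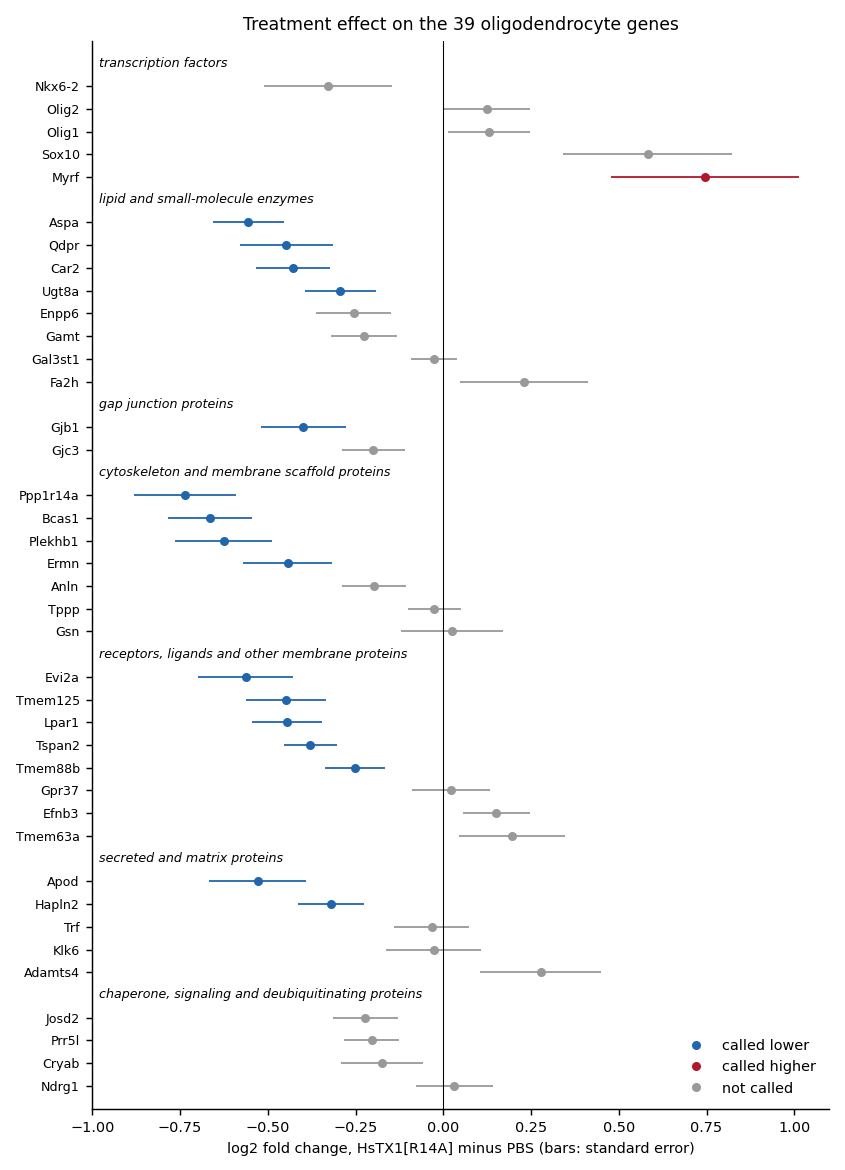
Treatment effect as log2 fold change, treated over control, (x axis) for each of the 39 members (rows, grouped by role), with bars of 1 standard error and colors for the call at an adjusted p of at most 0.05. The 16 members called lower (blue) lie in 5 of the 7 roles, and Myrf alone is called higher (red).

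The members called lower are described by role, starting with the cytoskeleton and membrane scaffold proteins, of which 4 of 7 were called lower. Bcas1, a marker of early myelinating oligodendrocytes (chromosome 2, 170346991 to 170427845 in GRCm38), ran at 188 to 391 CPM (median 274) in the PBS mice and at 137 to 208 CPM (median 181) in the treated mice. Its log2 fold change was -0.66 ± 0.12 (standard error, adjusted p = 0.0145), and Bcas1 RNA fell by 36.9%. All 9 treated mice were below the PBS median and 10 of the 12 PBS mice were above the highest treated mouse. Ppp1r14a, an inhibitor of myosin phosphatase (chromosome 7, 29289308 to 29293801), ran at 12.2 to 29.4 CPM (median 16.1) with PBS and 7.70 to 14.1 CPM (median 11.3) with HsTX1[R14A], a log2 fold change of -0.73 ± 0.15 (adjusted p = 0.0151). For Ppp1r14a too, 10 PBS mice were above every treated mouse. Plekhb1 (chromosome 7, 100642892 to 100662414) ran at 338 to 716 CPM (median 466) with PBS and 225 to 367 CPM (median 355) with HsTX1[R14A], and fell by 35.2% with a log2 fold change of -0.63 ± 0.14 (adjusted p = 0.0151). Mouse 98 was the lowest treated mouse for Bcas1, Ppp1r14a and Plekhb1. Ermn, which binds actin in oligodendrocyte processes, fell by 0.44 on the log2 scale. Anln (log2 fold change -0.20), an actin-binding protein, Tppp (-0.03), which bundles microtubules, and Gsn (0.03), which severs actin, were not called. Bcas1 shares 11.7% of its exonic bases with the antisense gene Bcas1os1, whose reads could not be told apart if counting ignored strand. The same holds for Qdpr, which shares 18.6% with the antisense gene Gm42413, for Nkx6-2, which shares 12.9% with Inpp5a on the other strand, and for Cryab with Hspb2.

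**Figure D2:**
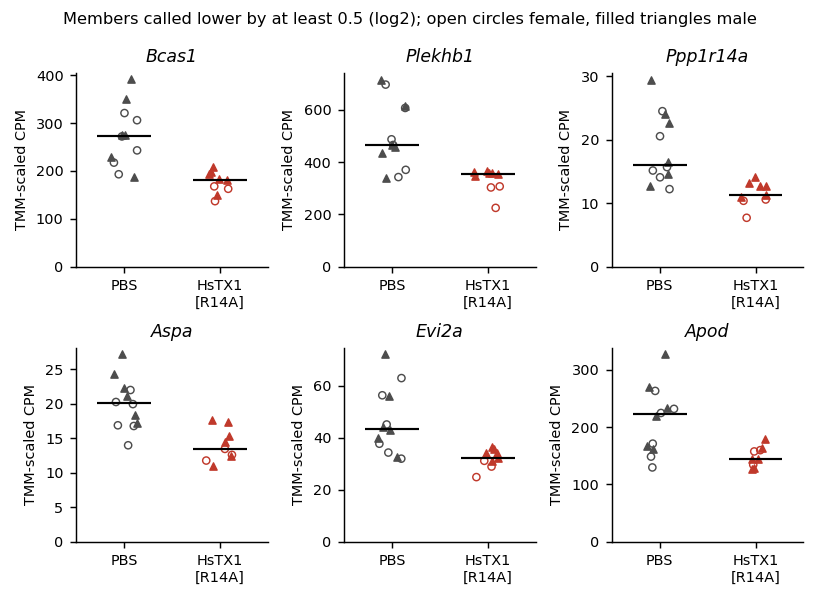
TMM-scaled CPM (y axis, from 0) of the 6 members called lower by at least 0.5 on the log2 scale, 1 point per mouse (12 PBS and 9 HsTX1[R14A], circles female and triangles male), with lines at the group medians. The treated points lie below the PBS median in each panel while the 2 groups overlap. These 6 genes were picked by their calls in the same mice.

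Of the 8 receptors, ligands and other membrane proteins, 5 were called lower. Tspan2, a tetraspanin of oligodendrocytes, ran at 88.4 to 136 CPM (median 106) with PBS and 67.97 to 94.4 CPM (median 86.3) with HsTX1[R14A], a log2 fold change of -0.38 ± 0.08 (adjusted p = 0.0151). The lysophosphatidic acid receptor Lpar1 ran at 40.8 to 68.6 CPM (median 54.7) and 31.9 to 44.6 CPM (median 40.5), a log2 fold change of -0.45 ± 0.10 (adjusted p = 0.0151), and 9 of 12 PBS mice were above its highest treated mouse. Evi2a, a membrane protein gene within an intron of Nf1, ran at 31.9 to 72.1 CPM (median 43.5) and 24.9 to 36.3 CPM (median 32.01), with a log2 fold change of -0.56 ± 0.13 (adjusted p = 0.0161). Evi2a shares 19.2% of its exonic bases on the same strand with Evi2, so its reads are uncertain. The transmembrane proteins Tmem125 (log2 fold change -0.45) and Tmem88b (-0.25) were also called lower, the latter not without PBS mouse 73, 82 or 90 or HsTX1[R14A] mouse 72 or 98 (adjusted p of up to 0.0702). Gpr37 (0.02), a G protein-coupled receptor, Efnb3 (0.15), an ephrin ligand, and Tmem63a (0.20), a mechanosensitive channel, were not called.

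Among the 8 lipid and small-molecule enzymes, 4 were called lower. Aspa, which splits N-acetylaspartate into acetate and aspartate (chromosome 11, 73304992 to 73329596), ran at 13.98 to 27.2 CPM (median 20.1) with PBS and 10.9 to 17.6 CPM (median 13.5) with HsTX1[R14A]. It fell by 31.9%, with a log2 fold change of -0.56 ± 0.10 (adjusted p = 0.0151), and every treated mouse was below the PBS median. The carbonic anhydrase Car2 ran at 201 to 390.1 CPM (median 252) and 159 to 240.3 CPM (median 198), a log2 fold change of -0.43 ± 0.11 (adjusted p = 0.0163). Qdpr (log2 fold change -0.45), which regenerates tetrahydrobiopterin, and Ugt8a (-0.29), which makes galactosylceramide, were called lower. The call of Ugt8a was lost when any of PBS mice 73 and 90 or HsTX1[R14A] mice 98, 72 and 81 was left out, with adjusted p of up to 0.0775, and that of Qdpr without PBS mouse 90 (adjusted p = 0.0522). Of the other enzymes of galactolipid synthesis, Fa2h (0.23), the fatty acid 2-hydroxylase, and Gal3st1 (-0.03), which makes sulfatide, were not called. Gamt (-0.23), of creatine synthesis, and Enpp6 (-0.25) were not called either.

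Both connexin genes had values below 0, and 1 was called. Gjb1, connexin 32, ran at 16.4 to 31.97 CPM (median 22.5) with PBS and 11.96 to 21.5 CPM (median 18.03) with HsTX1[R14A], a log2 fold change of -0.40 ± 0.12 (adjusted p = 0.0237). Its call was lost without PBS mouse 90 (adjusted p = 0.0564) and without HsTX1[R14A] mouse 98. Gjc3, connexin 29, ran at 34.2 to 56.00 CPM (median 42.7) and 34.8 to 41.3 CPM (median 37.8), a log2 fold change of -0.20 ± 0.09 (adjusted p = 0.0876). The treated values of Gjc3 were narrow and all below the PBS median, though none was below the lowest PBS mouse, and Gjc3 was not called. Among the 5 secreted and matrix proteins, Apod and Hapln2 were called lower. Apod, a lipid-binding apolipoprotein, ran at 129.6 to 328 CPM (median 222) and 127 to 179.7 CPM (median 145), a log2 fold change of -0.53 ± 0.14 (adjusted p = 0.0176), and fell by 30.7%. Hapln2, a link protein of the matrix at nodes of Ranvier, ran at 14.8 to 25.2 CPM (median 21.5) and 14.8 to 20.04 CPM (median 16.6), a log2 fold change of -0.32 ± 0.09 (adjusted p = 0.0219). Transferrin Trf (-0.03), the aggrecanase Adamts4 (0.28) and the protease Klk6 (-0.03) were not called. Trf shares 63.5% of its exonic bases on the same strand with Gm20425, another gene of the table, so its counts are uncertain.

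None of the 4 chaperone, signaling and deubiquitinating genes was called by edgeR. An unadjusted p of at most 0.05 was found for 2 of them, and for 7562 of all 16303 genes tested. Prr5l, a subunit-binding protein of mTORC2, ran at 11.6 to 15.6 CPM (median 12.7) with PBS and 9.71 to 13.6 CPM (median 11.5) with HsTX1[R14A], a log2 fold change of -0.20 ± 0.08 (adjusted p = 0.0521). DESeq2 called it (adjusted p = 0.0397), limma with voom called none of the 4, and edgeR called it when any of PBS mice 83, 91, 102 and 104 or HsTX1[R14A] mice 88 and 89 was left out. Josd2, a deubiquitinating enzyme, ran at 21.1 to 34.6 CPM (median 27.4) and 19.7 to 27.6 CPM (median 23.5), a log2 fold change of -0.22 ± 0.09 (adjusted p = 0.0675). Leaving out a single mouse also brought calls of lower for Josd2 and Gjc3 (PBS 83 or 102), Anln (PBS 102), Gamt (PBS 85 or HsTX1[R14A] 89) and Enpp6 (PBS 91 or HsTX1[R14A] 81). The small heat shock protein Cryab (-0.18) and Ndrg1 (0.03), whose loss causes a peripheral demyelinating neuropathy, had values on both sides of 0. Cryab shares some of its exonic bases with Hspb2 on the opposite strand.

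Of the 5 transcription factors 0 were called lower by edgeR, limma with voom or DESeq2, and 1 was called higher by edgeR. Myrf (chromosome 19, 10208272 to 10240748) ran at 9.44 to 55.9 CPM (median 28.3) in the PBS mice and 13.3 to 70.8 CPM (median 47.9) in the treated mice, and 8 of 9 treated mice were above the PBS median. Its log2 fold change was 0.75 ± 0.27 (adjusted p = 0.0404). The groups overlapped widely, with PBS mouse 84 at 55.9 CPM and HsTX1[R14A] mouse 93 at 13.3 CPM. The call of Myrf was lost on leaving out any of 10 mice, PBS 73, 90, 91 and 101 and HsTX1[R14A] 71, 72, 74, 81, 88 and 98, with adjusted p of up to 0.0823, and it was not called by limma with voom (adjusted p = 0.0538). Sox10, which acts with Myrf on myelin genes, ran at 7.66 to 35.2 CPM (median 22.7) and 14.6 to 49.97 CPM (median 32.05), a log2 fold change of 0.58 ± 0.24 (adjusted p = 0.0660), and DESeq2 called it (adjusted p = 0.0417), as did edgeR without PBS mouse 84 or HsTX1[R14A] mouse 93. Olig1 (0.13) and Olig2 (0.12) were not called, nor was Nkx6-2 (-0.33), the member of this role whose value was below 0. PBS mouse 103, which had the lowest length slope, was the lowest PBS mouse for Myrf, Sox10, Olig1 and Olig2, and HsTX1[R14A] mouse 93 was the lowest treated mouse for the same 4 genes.

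**Figure D3:**
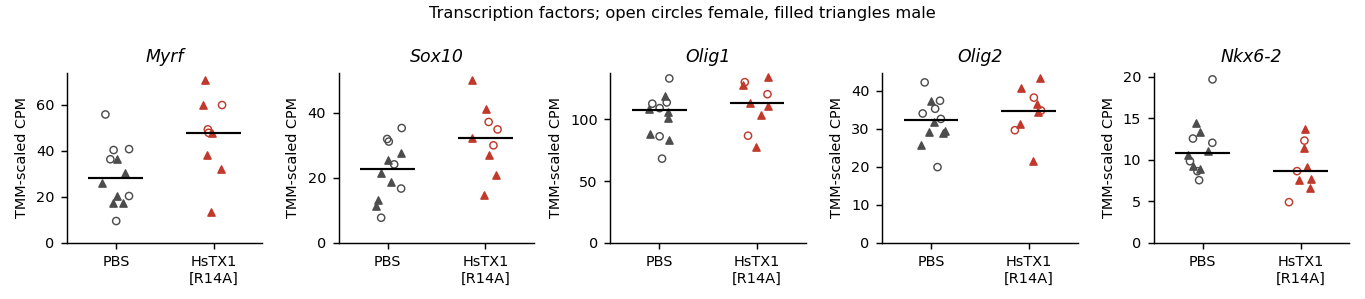
TMM-scaled CPM (y axis, from 0) of the 5 transcription factors, 1 point per mouse (12 PBS and 9 HsTX1[R14A], circles female and triangles male), with lines at the group medians. Myrf and Sox10 have higher treated medians, and Nkx6-2 a lower one, with wide overlap in every panel.

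Within single mice, members were counted above their own median over the 21 mice. The count ran from 7 to 35 of 39 with PBS (median 23.5) and from 3 to 23 with HsTX1[R14A] (median 13), while the share of all genes above their median was 46.0% to 50.3% in every mouse. HsTX1[R14A] mice 98 and 93 had the lowest counts, 3 each. Their patterns differed, since mouse 98 had 2 transcription factors above the median and mouse 93 had 0, and their length slopes were 0.234 and -0.142. PBS mice 104 and 102, both of name form SAMP, had the lowest PBS counts, 7 and 14. PBS mouse 90 was the highest PBS mouse for 17 members, among them 13 of the 16 called lower.

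**Figure D4:**
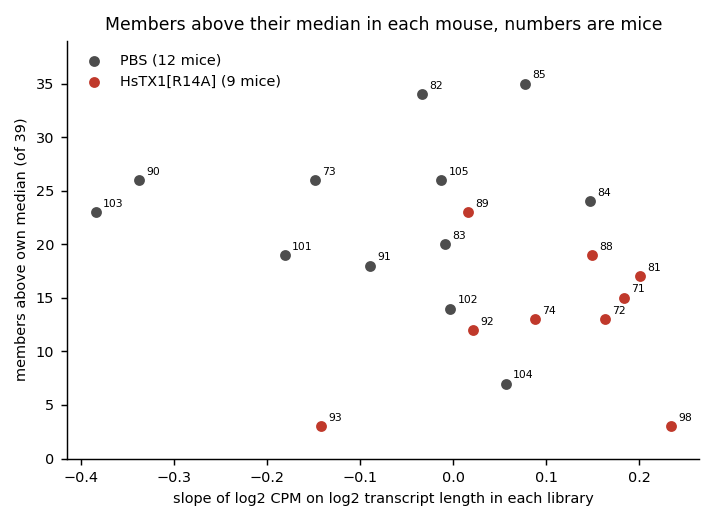
Number of the 39 members above their own median over 21 mice (y axis) against the length slope of each library (x axis), 1 labeled point per mouse, 12 PBS and 9 HsTX1[R14A]. PBS counts run from 7 to 35 and treated counts from 3 to 23, and PBS mice 103 and 90 lie far to the left.

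Because the median length slope differed between the treatments, the members were set beside genes of like transcript length. Of members with a longest transcript under 2000 bases, 5 of 11 were called lower (45.5%, against 30.1% of all genes of that length). Between 2000 and 4000 bases 9 of 17 were (52.9% against 16.6%), and over 4000 bases 2 of 11, Aspa and Tspan2 (18.2% against 6.68%). The median log2 fold change of members over 4000 bases was -0.20, against 0.17 over all genes of that length. With each library's slope as a covariate, no gene was called, among the members or among all genes. In that fit, 14 members had an unadjusted p of at most 0.05, all 14 with values below 0 (35.9%, against 11.4% of all genes in either direction), and 38 of 39 values were below 0. All 16 members called lower, which were picked in a fit of the same mice, stayed below 0. Of them, 9 kept an unadjusted p of at most 0.05, namely Aspa, Ppp1r14a, Plekhb1, Bcas1, Lpar1, Tspan2, Tmem88b, Apod and Hapln2. Bcas1 then had -0.46 ± 0.13 and Aspa -0.34 ± 0.09 on the log2 scale. Myrf changed sign to -0.12 ± 0.15, and all 5 transcription factors had values below 0.

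**Figure D5:**
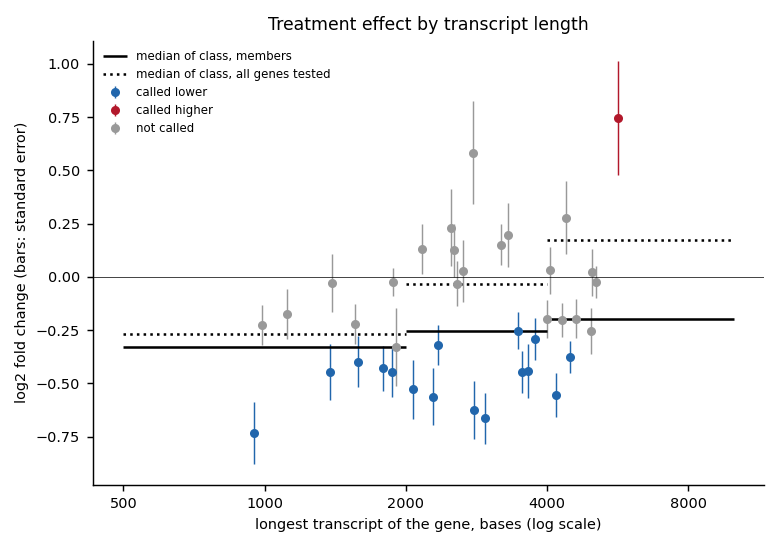
Treatment effect as log2 fold change, treated over control, (y axis, with standard errors) against the longest transcript of each member (x axis, log scale), with solid lines at the median of the members and dotted lines at the median of all genes tested in each of 3 length classes. The solid line lies below the dotted line in each class.

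When trends of expression with length and with GC content were taken out of each library, 12 members were called lower and 0 higher, where 6.23% of all genes were called lower. Prr5l was among the 12, and the other 11 were also called in the comparison above. With the form of the library name as a covariate, 10 members were called lower (6.28% of all genes). Without PBS mice 103 and 90, 12 members were called lower (7.36% of all genes) and Myrf was not called. Bcas1, Aspa, Ppp1r14a, Plekhb1, Lpar1, Tspan2, Car2, Tmem125 and Evi2a were called lower in each of these 3 fits. Within the SAMP8 name form alone (10 PBS and 5 treated mice) no gene was called, 20 members had an unadjusted p of at most 0.05 (35.6% of all genes did), and the 16 genes named as lower were all below 0 with such a p. Within the SAMP form (2 and 4 mice) the 16 were below 0 as well, with 0 members at an unadjusted p of at most 0.05 and 0 genes called. The 16 had been picked with the mice of both forms, so their signs here are not a separate test.

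Promoter sequences were taken from RefSeq on GRCm38.p6. The letters before the listed start are shown for the 4 members with the smallest p-values among those called lower that have a single listed start. Olig2 is shown as a gene that was not called. Of the 39 members, 27 had a listed start, with 41 windows of 250 bases before the start among them. The cores bound by SOX proteins (ACAAAG and ACAATG), the E-box CAGCTG, which reads the same on both strands, the MYRF cores CTGGCAC and CTGGTAC and the TATA box TATAAA were searched on both strands, and the 2 SOX cores and the 2 MYRF cores each differ from each other by a single letter. The capitals mark the matches, on either strand.
Aspa (chr11:73324638-73324887, minus strand): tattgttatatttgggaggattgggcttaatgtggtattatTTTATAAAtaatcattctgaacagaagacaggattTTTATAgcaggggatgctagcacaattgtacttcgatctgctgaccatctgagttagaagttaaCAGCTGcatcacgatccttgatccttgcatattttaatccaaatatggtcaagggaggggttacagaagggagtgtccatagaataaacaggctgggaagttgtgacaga
Ppp1r14a (chr7:29289070-29289319, plus strand): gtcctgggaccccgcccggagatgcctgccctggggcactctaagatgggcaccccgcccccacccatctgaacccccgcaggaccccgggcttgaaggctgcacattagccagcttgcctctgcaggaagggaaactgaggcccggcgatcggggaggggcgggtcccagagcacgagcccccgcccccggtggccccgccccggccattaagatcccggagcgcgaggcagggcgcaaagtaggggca
Tmem125 (chr4:118543727-118543976, minus strand): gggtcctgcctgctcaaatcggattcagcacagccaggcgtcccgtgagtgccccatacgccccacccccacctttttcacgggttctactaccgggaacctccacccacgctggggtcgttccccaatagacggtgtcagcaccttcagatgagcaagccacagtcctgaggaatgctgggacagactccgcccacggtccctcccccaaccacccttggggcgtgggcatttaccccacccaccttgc
Apod (chr16:31314809-31315058, minus strand): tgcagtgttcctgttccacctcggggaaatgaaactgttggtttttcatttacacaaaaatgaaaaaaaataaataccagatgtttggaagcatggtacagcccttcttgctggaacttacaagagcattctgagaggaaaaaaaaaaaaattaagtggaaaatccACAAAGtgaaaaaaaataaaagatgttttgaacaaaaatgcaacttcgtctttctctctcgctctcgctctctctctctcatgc
Olig2 (chr16:91225300-91225549, plus strand): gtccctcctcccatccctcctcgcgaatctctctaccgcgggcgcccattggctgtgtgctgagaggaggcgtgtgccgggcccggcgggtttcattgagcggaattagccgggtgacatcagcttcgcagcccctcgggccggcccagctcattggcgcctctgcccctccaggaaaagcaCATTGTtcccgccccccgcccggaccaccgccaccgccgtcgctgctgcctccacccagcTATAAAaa

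The RefSeq starts did not always match the GENCODE gene coordinates used here. By those coordinates the Aspa and Tmem125 windows lie inside the gene, and the Olig2 and Ppp1r14a windows run past the gene start. The Apod window lies just before its gene. The 5 windows differed in the letters they hold. Aspa holds an E-box and 3 TATA matches, of which 2 overlap, Apod a SOX core, Olig2 a SOX core and a TATA box, and Ppp1r14a and Tmem125 none of the letters searched. GC content was 38.8% for Aspa and 36.4% for Apod, against 71.2% for Ppp1r14a, 62.8% for Tmem125 and 66.8% for Olig2. Some members have several windows, and those of Gal3st1 and Lpar1 partly overlap, so the windows are not independent counts. Over the 41 member windows, ACAAAG was found in 26.8% (16.5% of the 32851 windows of all genes) and ACAATG in 29.3% (10.7%). CAGCTG was found in 12.2% (13.001% of all windows), CTGGCAC in 7.32% (4.19%), CTGGTAC in 0 windows (1.83%) and TATAAA in 9.76% (12.4%). Counted by gene, 9 of the 27 members with a window held ACAAAG and 10 held ACAATG, and the share of all genes by gene was not computed. Of the 13 members called lower that had a window, 5 held ACAAAG and 5 held ACAATG, against 4 and 5 of the 14 not called.

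The sexes were compared at equal treatment. No member was called for sex by edgeR, limma with voom or DESeq2, and by edgeR 0.0552% of all genes (9 of 16303) were called. At an unadjusted p of at most 0.05 there was 1 member, Aspa, and there were 1765 genes in all. Aspa was higher in males by 0.24 ± 0.10 on the log2 scale (adjusted p = 0.446), and Car2 by 0.21 ± 0.10 (adjusted p = 0.446). The treatment effect was also compared between the sexes. For that interaction edgeR called 0 genes and neither limma with voom nor DESeq2 called a member, and 0 members and 270 genes had an unadjusted p of at most 0.05. The 2 members with the smallest p were Gjb1, at -0.67 ± 0.18 in females and -0.22 ± 0.14 in males, and Enpp6, at -0.44 ± 0.16 and -0.13 ± 0.13. All 16 members called lower had values below 0 in both sexes, but they were picked in a fit of the same mice. The difference between the sexes was 0.45 ± 0.23 for Gjb1 and 0.30 ± 0.21 for Enpp6 (male minus female), with adjusted p of 1.00 for both.

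The structural genes of compact myelin, which the members leave out, gave 7 of 12 genes called lower (58.3%) and 0 higher. Over all genes tested, 16.1% were called lower and 15.5% higher. The median log2 fold change of the compact myelin genes was -0.40. Opalin, a myelin sialoglycoprotein, was at -0.99 ± 0.15 (adjusted p = 0.0145) and Pllp, plasmolipin, at -0.69 ± 0.11 (adjusted p = 0.0145). Of 9 partners of the members in iron, creatine and acetate handling and in gap junctions, 4 were called lower (44.4%) and 0 higher. These included Gatm, of creatine synthesis, at -0.54 ± 0.10 (adjusted p = 0.0151) and the ferritin heavy chain Fth1 at -0.71 ± 0.16 (adjusted p = 0.0151). Markers of oligodendrocyte precursors, which do not yet make myelin, gave 0 lower and 2 higher of 10 (20%, near the share of all genes called higher). The 2 were Gpr17 at 0.72 ± 0.19 (adjusted p = 0.0185) and the proteoglycan Cspg4 at 0.66 ± 0.22 (adjusted p = 0.0307). The 10 other transcription regulators of the lineage gave 1 lower, Id2 at -0.47 ± 0.13 (adjusted p = 0.0193), and 1 higher, Zfp536 at 0.61 ± 0.17 (adjusted p = 0.0203). Both shares, 10% each, were below those of all genes. Of 13 genes of sphingolipid synthesis and breakdown, 1 was lower (7.69%), Sptssa at -0.55 ± 0.17 (adjusted p = 0.0248). Of the same 13, 3 were higher (23.1%), among them Arsa, which degrades sulfatide, at 0.41 ± 0.12 (adjusted p = 0.0205). The longest transcripts of Gpr17 and Cspg4 are 5195 and 8121 bases, lengths at which 29.5% of all genes were called higher.

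Markers of other cell types were counted against the same shares of all genes (16.1% called lower and 15.5% called higher). Of 8 astrocyte markers 4 were called lower, led by S100b at -0.72 ± 0.17 (adjusted p = 0.0152) and Gfap at -0.59 ± 0.20 (adjusted p = 0.0312), and 1, Fgfr3, was called higher (0.32), so that the list held calls in both directions. S100b is also expressed by oligodendrocytes. The summed astrocyte markers overlapped widely, at 3169 to 4869 CPM with PBS (median 4342) and 3239 to 4910.4 CPM with HsTX1[R14A] (median 4411). The most abundant marker, Slc1a2, had medians of 2112 and 2484 CPM and was not called, so the sum does not speak for the 4 genes called lower. Their share of the list, 50%, was above the 41.0% of the members. Of 8 microglia markers 2 were called lower, P2ry12 at -0.65 ± 0.14 (adjusted p = 0.0151) and Aif1 at -0.55 ± 0.18 (adjusted p = 0.0272), and their sum ran at 385 to 557 CPM with PBS (median 440.2) and 329 to 487 CPM with HsTX1[R14A] (median 364). Of 8 neuron markers 1 was called higher, Syt1 at 0.31 ± 0.11 (adjusted p = 0.0349), while Slc17a7 was at 0.48 ± 0.20 (adjusted p = 0.0674), and their sum ran at 4420.2 to 7018 CPM with PBS (median 5666) and 5114 to 8028 CPM with HsTX1[R14A] (median 6179). Of 6 endothelial markers 1 was called higher, Flt1 at 0.64 ± 0.18 (adjusted p = 0.0191), and Cldn5 was at 0.25 ± 0.11 (adjusted p = 0.0807), with a sum of 54.9 to 119 CPM with PBS (median 83.5) and 69.5 to 136 CPM with HsTX1[R14A] (median 108). The 1 call each of the neuron and endothelial lists, 12.5% and 16.7%, lay near the share of all genes. Their part in the result for the members was not tested.

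Choroid plexus, which is part of the whole brain, and peripheral nerve and blood were looked at through 3 further lists. Of 6 choroid plexus markers none was called (Kcne2 at -0.78 ± 0.42 (adjusted p = 0.151) and Ttr at -0.59 ± 0.44 (adjusted p = 0.295)), although their sum ran at 67.6 to 1122 CPM with PBS (median 795) and 57.3 to 828 CPM with HsTX1[R14A] (median 509.5). At an unadjusted p of at most 0.05 there were 0 of them. Of 4 genes tested from the Schwann cell list, Egr2 was called higher at 0.98 ± 0.28 (adjusted p = 0.0204) and Cdh19 lower at -0.31 ± 0.10 (adjusted p = 0.0277). The peripheral myelin genes Prx and Ncmap were low, with PBS medians under 1 CPM, and were not called. The cell type that the Egr2 and Cdh19 RNA came from is not known, and whether these calls reflect peripheral tissue was not tested. The erythrocyte genes were not called (Hbb-bs at 0.63 ± 0.45 (adjusted p = 0.276) and Hbb-bt at 0.54 ± 0.45 (adjusted p = 0.350)), and their sum ran at 5.82 to 157 CPM with PBS (median 29.2) and 15.1 to 87.6 CPM with HsTX1[R14A] (median 40.6). No list had a member at 0 in every mouse.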

How the data were processed

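Whole-brain RNA of 21 mice was sequenced, 1 library per mouse. The authors mapped reads to GRCm38 with STAR, obtained gene values with Salmon and deposited a table of estimated counts (16318 genes) without normalization. The labels name a SMARTER kit and the methods a directional MGI kit, so whether counting used strand is not given in the sources used here. Fold changes and p-values of the authors and 53 further per-sample columns (CPM, and counts of other libraries) are in the same deposited table and were not used. Counts, of which 90.5% differed from a whole number by at most 0.01, were rounded before the tests.

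The low-count filter was edgeR's filterByExpr, with groups of treatment and sex. TMM scaling and the quasi-likelihood test of edgeR 4.0.16 in R 4.3.3 followed, the model held terms for sex and treatment, and Benjamini-Hochberg adjustment ran over the 16303 genes, with 0.05 as the threshold. The standard error is the size of the log2 fold change divided by the root of the F statistic. Values per mouse are TMM-scaled CPM, and the length of a gene is that of its longest GENCODE transcript (known for 99.5% of genes). The length slope used log2 CPM with a prior count of 2. Library totals are given with the results, and errors given are those between mice. The procedure was also run on simulated counts with 200 changed genes. Those counts held no length slopes, name forms, sex effects or outlying mice, so the run does not bear on these features.

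The members, gene lists and rules were chosen with earlier results of these data known. Every member is named, and full values are given for the 2 members of each role with the smallest p and for every member called with a log2 fold change of at least 0.5 in size. For sex and for the interaction, and in each other list, the 2 genes with the smallest p are named. The overlapping genes, the astrocyte genes Fgfr3 and Slc1a2 and the Schwann cell genes Prx and Ncmap are named beside them. Alternatives were limma 3.58.1 with voom, with and without sample weights, DESeq2 1.42.0, other scalings, filters and covariates, subsets by library name form, and each mouse left out in turn. The sample titles spell the peptide HxTX1[R14A].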

Additional observations from a re-analysis of the deposited data

Results flagged for a closer look

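In 5 members 1 treated mouse lay far below the other 8 (Dixon's test on 9 mice, at the 95% level), and chance alone gives such a gap in about 1 in 20 groups. HsTX1[R14A] mouse 93 was the lowest for Gsn (17.9 CPM, next mouse 32.2), Gpr37 (29.9 CPM, next 52.0), Trf (96.9 CPM, next 165) and Adamts4 (8.09 CPM, next 15.1). None of these 4 genes was called for treatment. HsTX1[R14A] mouse 98 was the lowest for Plekhb1 (225 CPM, next 303), and the log2 fold change of Plekhb1 stayed between -0.69 and -0.56 with any single mouse left out. The PBS group of 12 mice was not examined in this way.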

How the results depend on the processing

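The 39 member log2 fold changes gave 1139 planned single-gene results with the same direction on the same side of the threshold, 73 that lost the call, 28 that gained one and 47 that changed sign, and the 2 settings chosen after seeing the data gave 44 such unchanged results, 22 lost calls and 12 changes of sign. Of the 18 members that changed sign, 1, Myrf, was called in the reported fit. With the length slope as covariate all 11 members above 0 in the reported fit went below 0 and 1 went above, namely Myrf (-0.12), Sox10 (-0.18), Olig1 (-0.15), Olig2 (-0.18), Fa2h (-0.30), Gsn (-0.33), Gpr37 (-0.20), Efnb3 (-0.064), Tmem63a (-0.25), Adamts4 (-0.24), Klk6 (0.036) and Ndrg1 (-0.22). The other sign changes were Olig1 (-0.0019), Olig2 (-0.018), Gsn (-0.085), Gpr37 (-0.15), Efnb3 (-0.066), Adamts4 (-0.0082), Klk6 (0.20), Cryab (0.079) and Ndrg1 (-0.10) with length and GC trends removed, Gsn (-0.052), Gpr37 (-0.060) and Ndrg1 (-0.048) with upper quartile scaling, Gpr37 (-0.0020) and Klk6 (0.0079) with limma and voom, Klk6 (0.081) and Ndrg1 (-0.031) with sample quality weights, Gsn (-0.015) with the library name form as covariate, Klk6 (0.0085) in the SAMP8 form alone, Olig1 (-0.080), Gal3st1 (0.093), Gjc3 (0.11), Gsn (-0.13), Anln (0.059), Gpr37 (-0.084), Efnb3 (-0.087), Cryab (0.13) and Ndrg1 (-0.076) in the SAMP form alone and Gsn (-0.032), Klk6 (0.074) and Ndrg1 (-0.0044) without PBS mice 103 and 90. Leaving out 1 mouse turned the sign of 6 members, whose log2 fold changes then ran from -0.028 to 0.10 for Gsn, -0.046 to 0.00016 for Tppp, -0.022 to 0.096 for Gpr37, -0.087 to 0.035 for Trf, -0.093 to 0.035 for Klk6 and -0.023 to 0.089 for Ndrg1. The count of called members was 17 in the reported fit, of which 16 were lower and 1 higher. It fell to 10 lower and 0 higher with the library name form as covariate, and to 0 with the length slope as covariate, in the SAMP8 form alone and in the SAMP form alone (chosen after seeing the data). The single higher call was 0 with limma and voom, without the sex term, with length and GC trends removed and without PBS mice 103 and 90 (also chosen after seeing the data), and 2 with DESeq2. Leaving out each mouse in turn gave 12 to 21 called members, 12 to 20 lower and 0 to 2 higher. The fewest lower calls came without PBS mouse 90 and the most without PBS mouse 102. For sex and for the interaction 0 members were called in the reported fits and in each alternative that tested these effects. Neither effect was tested without the sex term, with the length slope as covariate or with length and GC trends removed. The same holds for sample quality weights, for each name form alone and for the fit without PBS mice 103 and 90. RLE scaling changed neither the median member level nor the range of members above their median beyond the spread between mice. No paired analysis was possible because the labels give neither a cage nor any other number that pairs mice across the groups.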
